A study of Mus musculus with 4 samples.

Results

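Detected microRNA precursor genes were taken as the genes whose symbol was Mir followed by a digit, without the ending hg of a host transcript, and whose mean level over the 4 libraries was at least 0.5 FPKM. FPKM are fragment numbers scaled by the length of the gene and by all mapped fragments of the library. By this rule 103 of the 524 listed microRNA genes were members, out of 28585 genes in all. The members were thus chosen by the measured FPKM themselves, so their detection is a description and not a result. The rule left out 10 host transcripts named Mir with the ending hg.

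The samples were bulk RNA sequencing libraries of PMN-MDSCs, the neutrophil-like form of the myeloid cells that restrain immune responses. The cells were CD11b+ Ly6C low or negative Ly6G+ cells from the spleen of C57BL/6J-background pups on postnatal day 7. The group labelled Dhps cko (n = 2) carried the floxed Dhps allele on both copies and a Cre recombinase expressed from the Lysm locus in myeloid cells, and the group labelled Dhps flox (n = 2) carried the floxed alleles without Cre. Dhps encodes deoxyhypusine synthase, the enzyme that uses spermidine to make the hypusine residue of the translation factor eIF5A. The labels did not say whether replicates came from separate animals, so the p-values measure only the spread between these samples.

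A microRNA gene is transcribed as a long primary transcript, often from an intron of a host gene. Drosha and Dgcr8 cut the hairpin precursor out of it in the nucleus, Xpo5 exports the hairpin, Dicer1 trims it to the mature microRNA, and an Argonaute protein uses the mature strand to find target mRNAs through the seed, bases 2 to 8. Mirtrons skip the Drosha step, because splicing of a short intron sets the ends of the hairpin. In neutrophils and their precursors, microRNAs such as miR-223, miR-142 and the miR-23a family are known regulators of maturation. The libraries here were of long RNA, so a level at a precursor gene counts fragments of primary transcripts, introns or exons that cover the hairpin, and mature microRNAs were not measured.

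The sequences of the members on which the results turn are shown here as RefSeq gives them for GRCm38.p6, the build called mm10 in the labels, with the seed in capitals. The first group of 3 comes from 1 cluster on chromosome 8 whose precursors were all lower in Dhps cko cells.
miR-27a-3p: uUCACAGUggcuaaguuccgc
miR-23a-3p: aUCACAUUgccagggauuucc
miR-24-3p: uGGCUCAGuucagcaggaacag

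The next 3 come from the Mir142 locus on chromosome 11, where Mir142 lies on the plus strand and Mir142b on the minus strand. The mature miR-142b spans chr11:87756906-87756925 and miR-142a-3p spans chr11:87756903-87756925, so the hairpins are transcribed from the same bases in opposite directions.
miR-142a-5p: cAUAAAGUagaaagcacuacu
miR-142a-3p: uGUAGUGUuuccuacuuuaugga
miR-142b: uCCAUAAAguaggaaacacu

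Most of the other members are hairpins that end at the 3′ end of an intron. The last 24 bases of the precursor are given for 5 of them, with the last 2 bases in capitals, and Mir27a follows as a precursor outside introns.
Mir6989: ccuguccacugucucuggucccAG
Mir6924: uacuccuuaauccccacccuucAG
Mir7062: gacuaacuucuccuggccccacAG
Mir6996: acggugucucuggucacucugcAG
Mir6955: cacaccugucuccuuugcccacAG
Mir27a: ggcuaaguuccgcccccuggacCC

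Of the 103 members, 91 had a RefSeq hairpin at the same position and 98 a RefSeq mature sequence. Shared seeds were rare, with 2 seeds held by more than 1 member. The seed AGGAAGG was in miR-6999-5p (aAGGAAGGagagucagcaagcac) and miR-7054-5p (uAGGAAGGugguugggcugaguacu). The seed AGGAGGA was in miR-6916-5p (cAGGAGGAuggagaugaguca) and miR-6942-5p (uAGGAGGAggggaacauuugc). In all 4 of these genes the genotypes overlapped, with log2 fold changes between -0.35 for Mir6916 and -0.03 for Mir6942.

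The 4 libraries held about 29050000 to 32100000 mapped fragments, as judged from the steps between low FPKM values, and 10611 to 10729 genes of at least 1 FPKM. This estimate is loose, since 38.25% to 41.11% of low values lay near a whole step and 30% would by chance. Dhps was 2.38 and 2.59 FPKM in Dhps cko and 3.57 and 3.11 FPKM in Dhps flox libraries, a log2 fold change of -0.41 ± 0.13 (SE, limma, unadjusted p = 0.0256, adjusted p = 0.63). Summed neutrophil markers (11 genes, Ly6g and S100a8 among them) were 76658.5 to 79004.3 FPKM in Dhps cko and 72119 to 76657 FPKM in Dhps flox libraries, and no list had a marker at 0 in all libraries. Summed B cell markers were 62.8 to 65.41 FPKM in Dhps cko against 40.31 to 49.38 FPKM in Dhps flox, with 6 of 6 genes higher. T cell markers (7 of 7 higher) were 13.54 to 16.95 against 7.31 to 10.82 FPKM, and monocyte and macrophage markers (8 of 8 higher) were 364.3 to 368.29 against 301.74 to 304.23 FPKM. Erythroid markers (368.01 to 552.13 FPKM) and megakaryocyte and platelet markers (1.66 to 4.43 FPKM) overlapped between genotypes, and endothelial markers were 3.44 to 3.57 FPKM against 3.15 to 3.22 FPKM. The sum of 4 Y-linked genes was 7.07 and 8.07 FPKM in Dhps cko against 17.64 and 15.62 FPKM in Dhps flox libraries. The part of these differences in the results below was not tested, and in bulk samples fewer cells of a type and less RNA per cell cannot be told apart.

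The precursors were short and weakly covered. Their length ran from 54 to 139 bases with a median of 71 bases, and their mean level from 0.51 to 38.6 FPKM with a median of 1.29 FPKM. A level of that order was only a few fragments on a gene so short. The median member had about 3.14 fragments per library, 48 members had fewer than 3 and 19 had at least 10. At least 1 FPKM was reached by 61 members and at least 5 FPKM by 12, and 5 members were listed at 0 in at least 1 library. Just inside the 0.5 FPKM limit were Mir3473g with a mean of 0.53 FPKM, Mir702 with 0.515 FPKM and Mir1291 with 0.51 FPKM. Mir702 was 1.1 and 0.01 FPKM in Dhps cko and 0.00 and 0.95 FPKM in Dhps flox libraries, and Mir1291 was 0.30 and 0.37 against 0.98 and 0.39 FPKM. Just outside were Mir7046 with 0.495 FPKM, Mir697 with 0.4875 FPKM and Mir421 with 0.485 FPKM. Mir7046 was 0.00 and 0.91 against 0.62 and 0.45 FPKM, Mir697 was 0.29 and 0.27 against 0.52 and 0.87 FPKM, and Mir421 was 0.21 and 0.24 against 0.00 and 1.49 FPKM. Single libraries at or near 0 occurred on both sides of the limit.

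The difference between replicates of one genotype was larger for the precursors than for longer genes at the same level. Between 0.5 and 1 FPKM the median difference between replicates was 0.93 on the log2 scale for 42 members, against 0.29 for 1403 genes of at least 1000 exon bases. Between 1 and 5 FPKM it was 0.56 for 49 members against 0.16 for 3887 longer genes, and between 5 and 50 FPKM it was 0.36 for 12 members against 0.10 for 4802 longer genes. The other short noncoding RNA genes were taken by symbol as small nucleolar, small Cajal body, small nuclear and let-7 RNA genes. The let-7 symbols are microRNA genes that the membership rule does not take in. This set was near the precursors, at 1.12 for 17 genes, 0.48 for 14 genes and 0.36 for 2 genes in these ranges of level. FPKM of equal size therefore carried a larger error for a precursor than for a gene of ordinary length.

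**Figure D1:**
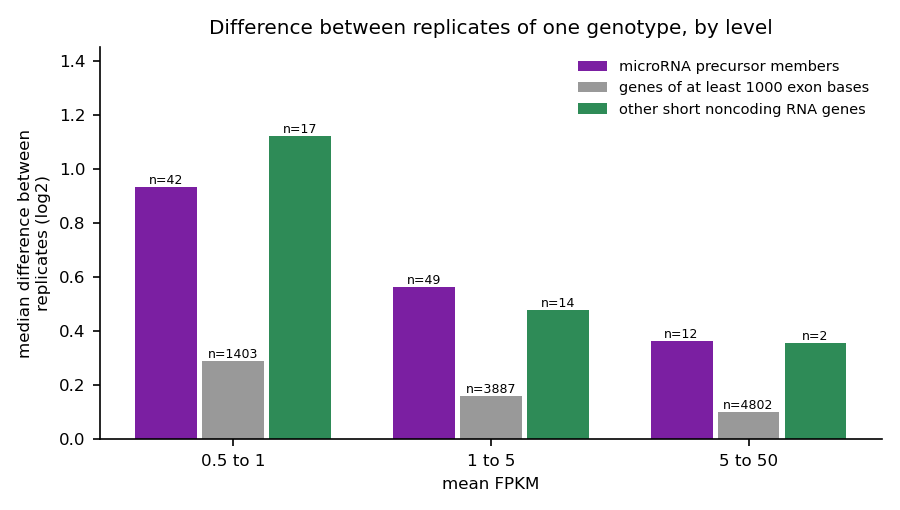
Bars give the median absolute difference in log2(FPKM + 0.1) between the 2 libraries of one genotype for microRNA precursor members, genes of at least 1000 exon bases and other short noncoding RNA genes, by mean FPKM (x axis), with the number of genes above each bar. In each range of level the members differ more between replicates than the longer genes, from 0.93 against 0.29 in the lowest range to 0.36 against 0.10 in the highest.

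Most members lay inside other genes, and the commonest place was the 3′ end of an intron. In GENCODE M21, 55 of 103 members (53.4%) ended within 1 base of a splice acceptor of their host gene, 52 of them exactly at it, while 117 of the 421 other listed microRNA genes did (27.8%). Another 23 members lay elsewhere in an intron, 12 overlapped an exon on their strand, 7 lay on the strand opposite another gene and 6 lay between genes. Precursors over exons were the class least often detected, with 12 members of 159 (7.55%) and 63 genes listed at 0 in all 4 libraries, against 55 members of 172 (32.0%) for those at a splice acceptor. The host introns of the 55 were 77 to 9193 bases long with a median of 273 bases, and 3 of these hairpins also began at the splice donor, as a classical mirtron does.

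The letters of these hairpins are given as a description, since a hairpin chosen for ending at a splice acceptor holds the letters of an intron end by that choice. Of 50 acceptor-end hairpins with a RefSeq sequence, 47 (94.0%) ended in AG, the last bases of nearly every intron. Among other members 2 of 41 did (4.88%), and among RefSeq mouse hairpins outside chromosome 18 it was 238 of 1005 (23.68%). The 20 bases before the last 2 held a median of 80% C and U in the acceptor-end hairpins, with a range from 65% to 95%, and 60% in the other members, with a range from 25% to 80%. The tails of Mir6989, Mir6924 and Mir7062 printed above show such a run of pyrimidines before the final AG.

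Host genes of the members were well expressed, and the precursors were listed at a fraction of the host level. For 89 members with a tested host, each a different gene, the host level ran from 2.27 to 286 FPKM with a median of 21.1 FPKM. The precursor level was 0.287% to 64.2% of that of its host, with a median of 6.96%. Across these 89 pairs, which share libraries and depth, the levels of precursor and host had a Spearman correlation of 0.47 and a Pearson correlation of 0.47, given as a description.

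The genotype comparison asks which precursor genes differed in level between Dhps cko and Dhps flox cells. Dhps FPKM in Dhps cko libraries was 74.4% of that in Dhps flox libraries, and the floxed exons were not examined apart. The comparison was made with limma on log2(FPKM + 0.1) for the 17953 genes whose mean reached 0.1 FPKM, so fold changes of low genes are understated. The fit draws the spread of each gene towards that of all genes of like level. Longer genes varied less between replicates than the precursors, so the SEs and p-values of precursors may be too small. No member had an adjusted p under 0.05, while 1 of all 17953 genes did (0.00557%). An unadjusted p under 0.05 was found for 23 members (22.3%), 17 lower (16.5%) and 6 higher (5.83%) in Dhps cko cells. Over all genes the same call was made for 1257 (7.0%), with 2.28% lower and 4.72% higher. The other short noncoding RNA genes had it in 10 of 33 (30.3%), 4 lower and 6 higher, so a share above that of all genes was also seen outside the members. The libraries of the genotypes did not overlap for 38 members (36.9%), 23 lower and 15 higher, against 36.0% of all genes, 16.0% lower and 20.0% higher. That share was near the background. The 0.5 FPKM rule was met through the Dhps flox mean alone by 12 members and through the Dhps cko mean alone by 6, and 6 of the 23 belonged to the first of these sets. Without Dhps cko replicate 2 the 23 became 14, and the lone Dhps cko library was then assumed to vary like the others.

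The median log2 fold change of the members was -0.10 with quartiles of -0.59 and 0.38, against 0.01 with quartiles of -0.12 and 0.17 for all genes tested and 0.07 for the other short noncoding RNA genes. The sign of the median depended on 1 library, since it was 0.08 without Dhps cko replicate 2 and -0.26 without Dhps cko replicate 1. Precursors ending at a splice acceptor had a median of -0.01, and the 100 members outside the chromosome 8 cluster had a median of -0.05.

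**Figure D2:**
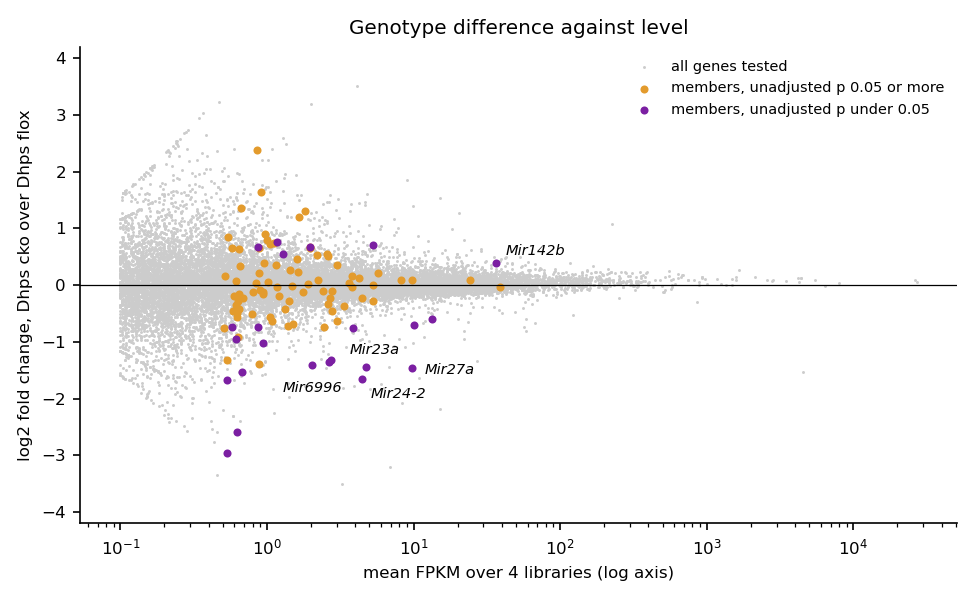
Each point is a gene, with its mean FPKM over 4 libraries on a log x axis and the log2 fold change of Dhps cko over Dhps flox on the y axis. Gray points are all genes tested (2 lie outside the y range), orange points the members with an unadjusted p of 0.05 or more, and purple points the 23 members with a smaller p, among which Mir27a, Mir23a and Mir24-2 lie near -1.5 at 4 to 10 FPKM.

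The member with the smallest p was Mir27a, which forms a cluster with Mir23a and Mir24-2. These genes lie within 404 bases of the plus strand (chr8:84208518-84208921) and are known to be made from one primary transcript. They were the only members within 10 kb of each other on one strand. Their levels in Dhps cko cells were 30.2% to 36.3% of those in Dhps flox cells. The microRNAs of this cluster are known to act in myeloid and lymphoid lineage choice and in inflammatory signaling.

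Mir27a (chr8:84208672-84208758), source of miR-27a-3p, was 5.06 and 5.22 FPKM in Dhps cko and 15.74 and 12.91 FPKM in Dhps flox libraries. Both Dhps cko libraries lay far below both Dhps flox libraries, and the difference in log2 level was -1.45 ± 0.12 (SE, limma, unadjusted p = 5.97e-05, adjusted p = 0.24). The adjusted p of Mir27a was 0.0441 when testing was limited to genes whose mean reached 1 FPKM and ran up to 0.95 over the other alternatives. Mir23a (chr8:84208518-84208592) was 2.95 and 2.13 FPKM against 7.67 and 6.32 FPKM, a log2 fold change of -1.44 ± 0.19 (SE, limma, unadjusted p = 0.000684, adjusted p = 0.38). Mir24-2 (chr8:84208815-84208921) was 2.51 and 1.64 FPKM against 8.64 and 5.11 FPKM, a log2 fold change of -1.66 ± 0.32 (SE, limma, unadjusted p = 0.00336, adjusted p = 0.49). The genotypes did not overlap for either gene.

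Summed over the cluster, the level was 10.52 and 8.99 FPKM in Dhps cko against 32.05 and 24.34 FPKM in Dhps flox libraries, a log2 fold change of -1.51 (limma, unadjusted p = 0.000207, adjusted p = 0.34). The genotype difference in log2 ratio was 0.02 for Mir23a over Mir27a (exact permutation p = 1.0, two-sided), 0.23 for Mir23a over Mir24-2 (exact permutation p = 0.667) and 0.21 for Mir27a over Mir24-2 (exact permutation p = 0.667). With 2 libraries against 2 the smallest p these 3 tests could give was 0.333, so they could not have shown a changed ratio, and each adjusted p was 1.0.

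Longer genes beside the cluster, chosen after its values were seen, gave more fragments. Gm37352, an unclassified transcript of 2181 bases on the same strand that ends 5469 bases before Mir23a, was 1.82 and 1.61 FPKM in Dhps cko and 6.88 and 5.40 FPKM in Dhps flox libraries. That corresponds to about 127 and 110 fragments against 459 and 342. The Dhps cko level was 27.9% of the Dhps flox level, and the log2 fold change was -1.77 ± 0.16 (SE, limma, unadjusted p = 0.000105, adjusted p = 0.24). Gm26532, a noncoding RNA gene that starts in the last 2 bases of Mir24-2, was 3.90 and 2.33 FPKM against 5.82 and 4.79 FPKM, with a log2 fold change of -0.79 ± 0.26 (SE, limma, unadjusted p = 0.0301, adjusted p = 0.65). Both noncoding neighbours were thus lower in both Dhps cko libraries, but Gm26532 had an unadjusted p under 0.05 in only 11 of 16 alternatives. Zswim4, a protein-coding gene on the opposite strand that ends 1757 bases past the cluster, was 12.49 and 13.52 FPKM against 13.37 and 15.92 FPKM, and its genotypes overlapped. The cluster lies 862836 bases from Dhps on the same chromosome, and what part the position near the targeted gene has in the difference was not tested.

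**Figure D3:**
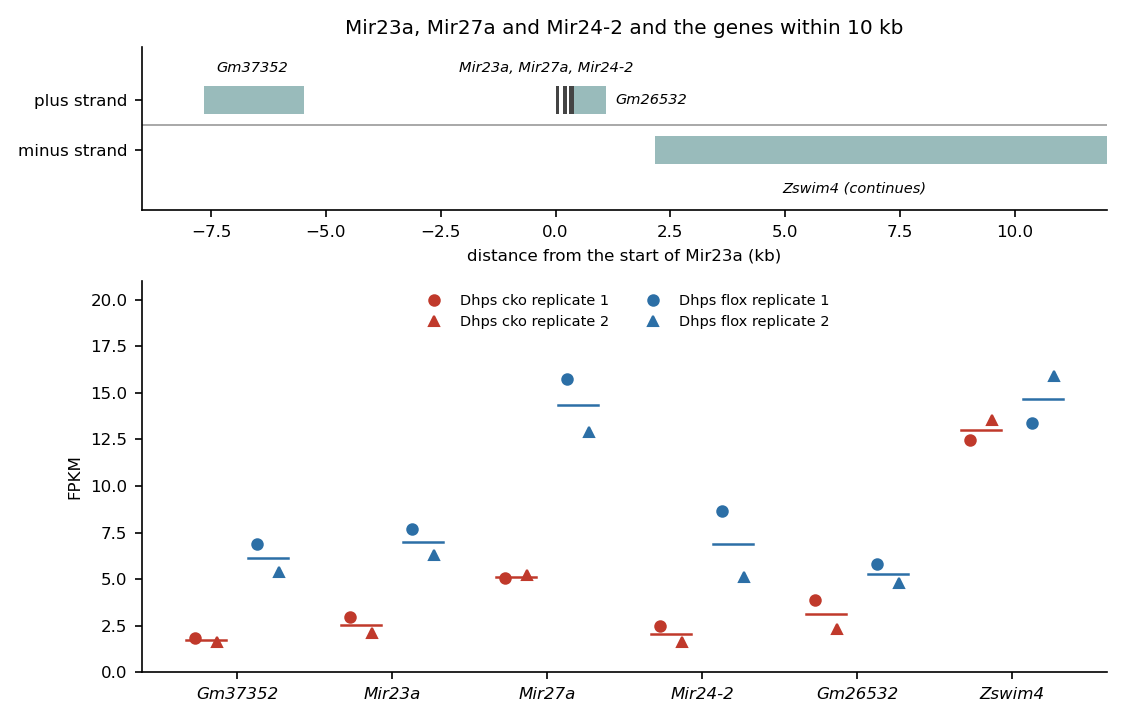
The upper panel maps the genes within 10 kb of the cluster by distance from the start of Mir23a in kb, with genes of the plus strand above the line and Zswim4 of the minus strand below it. The lower panel gives FPKM in each library, with circles for replicate 1, triangles for replicate 2 and short lines for the mean (red for Dhps cko, blue for Dhps flox); the Dhps cko points lie below the Dhps flox points for Gm37352, the 3 precursors and Gm26532, and overlap them for Zswim4.

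At the Mir142 locus the levels were higher in Dhps cko cells. miR-142 is a microRNA restricted to blood cells that is needed for normal leukocyte development. Mir142b (chr11:87756841-87756955, minus strand) was 43.63 and 38.76 FPKM in Dhps cko and 30.89 and 31.74 FPKM in Dhps flox libraries, without overlap, and the log2 fold change was 0.39 ± 0.08 (SE, limma, unadjusted p = 0.00376, adjusted p = 0.49). Mir142 (chr11:87756864-87756927, plus strand) was 3.74 and 3.01 FPKM against 2.76 and 2.46 FPKM, with a log2 fold change of 0.35 ± 0.15 (SE, limma, unadjusted p = 0.0695). The host transcript Mir142hg, whose intron holds both hairpins, was 25.74 and 21.37 FPKM against 17.81 and 19.34 FPKM, with a log2 fold change of 0.34 ± 0.11 (SE, limma, unadjusted p = 0.0277, adjusted p = 0.64), and kept an unadjusted p under 0.05 in 11 of 16 alternatives. The hairpins overlap on opposite strands and the counting was not stated to use strand, so reads of Mir142 and Mir142b cannot be told apart.

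Among the 12 members with a mean of at least 5 FPKM, Mir27a, Mir142b and 3 acceptor-end precursors had an unadjusted p under 0.05. This was 41.7% of them, against 7.0% of all genes, 5.79% of the 4802 longer genes between 5 and 50 FPKM and 1 of the 2 other short noncoding RNA genes in that range. Mir6953, in an intron of Grina, was 9.86 and 11.35 FPKM in Dhps cko and 17.59 and 14.81 FPKM in Dhps flox libraries, a log2 fold change of -0.60 ± 0.12 (SE, limma, unadjusted p = 0.00395). Mir7062, in an intron of the metalloprotease gene Adam8, was 7.5 and 7.87 FPKM against 11.28 and 13.91 FPKM, a log2 fold change of -0.70 ± 0.12 (SE, limma, unadjusted p = 0.00212). Mir6955, in an intron of Gga1, was 7.44 and 5.73 FPKM against 3.38 and 4.60 FPKM, a log2 fold change of 0.71 ± 0.20 (SE, limma, unadjusted p = 0.0164). The genotypes did not overlap for these 3 precursors. Their hosts were close to equal between genotypes, with log2 fold changes of 0.08 for Grina, 0.02 for Adam8 and -0.02 for Gga1.

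The other 7 of these abundant precursors overlapped between genotypes. Mir5125, the member with the highest mean and an intronic hairpin of the splicing factor gene Srrm2, was 46.50 and 30.71 FPKM in Dhps cko and 40.60 and 36.66 FPKM in Dhps flox libraries. Mir6989, in an intron of the kinase gene Map4k2, was 25.63 and 23.87 FPKM against 18.57 and 28.81 FPKM. The highest and lowest values of Mir6989 were both in Dhps flox libraries. Mir7059 in Cln3 was 12.78 and 7.72 FPKM against 8.40 and 10.24 FPKM, and Mir6924 in Acap1 was 8.01 and 8.91 FPKM against 6.61 and 9.47 FPKM. Mir6948 in Acin1 was 5.84 and 5.89 FPKM against 3.13 and 8.06 FPKM, and Mir6973a in the lymphotoxin gene Ltb was 4.61 and 6.04 FPKM against 4.41 and 6.23 FPKM. Mir7678, at a splice acceptor within Slpi, was 3.79 and 5.86 FPKM against 5.93 and 5.50 FPKM. Replicates of these genes differed by as much as the genotypes did.

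**Figure D4:**
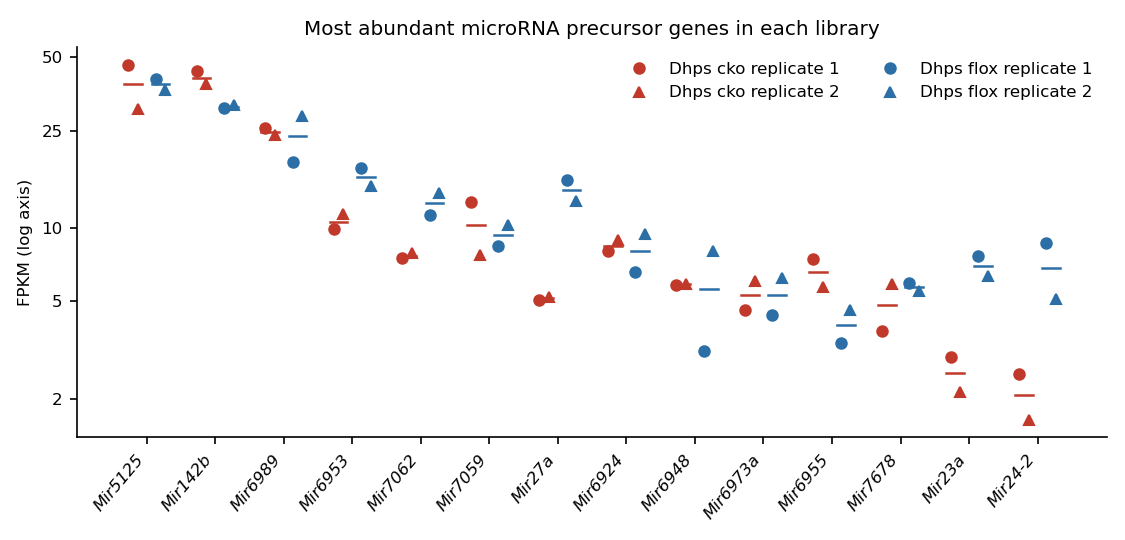
FPKM on a log axis in each library for the 12 members with a mean of at least 5 FPKM and for Mir23a and Mir24-2, in order of mean level, with circles for replicate 1, triangles for replicate 2 and short lines for the mean (red for Dhps cko, blue for Dhps flox). The colours separate for Mir142b, Mir6953, Mir7062, Mir27a, Mir6955, Mir23a and Mir24-2 and mix for the other 7.

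The remaining 16 members with an unadjusted p under 0.05 comprised 12 lower and 4 higher in Dhps cko cells, but 6 of the 12 (Mir103-2, Mir7669, Mir3064, Mir7651, Mir669n and Mir3473g) met the 0.5 FPKM rule through the Dhps flox mean alone and had to be lower to differ. No direction is read from this count, since the others were 6 lower and 4 higher. The mean of the 16 ran from about 1.02 fragments per library for Mir669n to about 10.7 for Mir3058. Mir6996, an acceptor-end hairpin in the receptor gene Notch1 (chr2:26470059-26470119), was 1.06 and 1.07 FPKM in Dhps cko and 3.12 and 2.88 FPKM in Dhps flox libraries. That was only about 2.08 and 2.05 fragments against 5.82 and 5.10. Its log2 fold change was -1.41 ± 0.14 (SE, limma, unadjusted p = 0.000166, adjusted p = 0.29). At so few fragments that SE is likely too small. Notch1 itself had a log2 fold change of -0.10. Mir6979 in the formin gene Diaph1 was 1.29 and 1.56 FPKM against 4.67 and 3.03 FPKM, a log2 fold change of -1.35. Mir1932, which lies between genes, was 2.16 and 1.02 FPKM against 3.41 and 4.39 FPKM, a log2 fold change of -1.32. These 3 precursors were at 35.5% to 40.8% of the Dhps flox mean.

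Mir3058 in the phosphohydrolase gene Nudt4 was 2.37 and 3.39 FPKM in Dhps cko and 4.89 and 4.82 FPKM in Dhps flox libraries. Mir8099-2, between genes, was 0.54 and 0.64 FPKM against 1.39 and 1.21 FPKM. Mir103-2 in the pantothenate kinase gene Pank2 was 0.35 and 0.22 FPKM against 1.44 and 0.68 FPKM. The log2 fold changes of these genes were -0.75, -1.02 and -1.53, the last running from -2.02 to -0.66 over the alternatives. miR-103 (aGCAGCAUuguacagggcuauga) is a widely expressed microRNA known from insulin signaling.

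The next 6 precursors had means below 1 FPKM. Mir7651 in Zmiz2 was 0.08 and 0.00 FPKM in Dhps cko and 1.47 and 0.59 FPKM in Dhps flox libraries, and Mir669n was 0.21 and 0.00 FPKM against 1.78 and 0.50 FPKM. Mir3473g in Sppl2a was 0.13 and 0.29 FPKM against 0.75 and 0.96 FPKM. The fitted log2 fold changes of these 3 genes were -2.96, -2.59 and -1.66. Over the alternatives they ran from -4.97 to -0.93 for Mir7651, from -4.35 to -0.89 for Mir669n and from -2.07 to -0.62 for Mir3473g, so their size is not settled. Mir7069 in Farsa was 0.65 and 0.60 FPKM against 1.26 and 0.98 FPKM, and Mir7669 in Ubap2l was 0.43 and 0.34 FPKM against 1.01 and 0.68 FPKM. Mir3064 in the RNA helicase gene Ddx5 was 0.43 and 0.38 FPKM against 0.64 and 0.85 FPKM. The log2 fold changes of these 3 genes were -0.74, -0.95 and -0.73, and that of Mir3064 ran from -0.91 to -0.31 over the alternatives.

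The other 4 higher precursors were modest in level. Mir6960 in Troap was 2.52 and 2.36 FPKM in Dhps cko and 1.78 and 1.24 FPKM in Dhps flox libraries, and Mir7027 in Ube3b was 1.57 and 1.52 FPKM against 0.94 and 1.11 FPKM. Mir290a, first of the embryonic stem cell cluster miR-290, was 1.3 and 1.67 FPKM against 0.70 and 0.99 FPKM. Mir1938 in Ifrd1 was 0.91 and 1.28 FPKM against 0.60 and 0.68 FPKM. The log2 fold changes ran from 0.55 for Mir7027 to 0.75 for Mir290a.

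The 73 members outside the 30 described for their level, p or cluster, Mir142, Mir106b, Mir702 and Mir1291 among them, had mean levels from 0.51 to 4.455 FPKM. Their log2 fold changes ran from -1.39 to 2.38 with a median of -0.03. The genotypes overlapped for 58 of them, while 9 were higher and 6 lower in both Dhps cko libraries without an unadjusted p under 0.05. Over all genes 36.0% did not overlap, 20.0% higher and 16.0% lower, a share that still includes the genes with a smaller p, so nothing is read from these counts. The largest value belonged to Mir7053 in the DNA polymerase gene Pold1, at 1.77 and 0.99 FPKM against 0.00 and 0.65 FPKM (limma, unadjusted p = 0.0602). Mir7053 met the 0.5 FPKM rule through the Dhps cko mean alone, and its fold rests on a library listed at 0.

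Precursors and their hosts were set side by side. Of the 23 members with an unadjusted p under 0.05, 15 had a tested host on the same strand, and 0 of these hosts had an unadjusted p under 0.05 by limma. Mir142b is not among the 15, because Mir142hg lies on the opposite strand, but both had an unadjusted p under 0.05 and were higher in Dhps cko cells, and the reads of the 2 strands cannot be told apart. Over all 89 pairs, 5 hosts (5.62%) had one, Cln3, Ltb, Mir142hg, H19 and Cd74, and both counts are near the 7.0% of all genes. The sign of the host was shared by 50 precursors (56.2%), which is close to an even split. Host log2 fold changes ran only from -0.31 to 0.64, against -2.96 to 2.38 for the members. The Spearman correlation of the log2 fold changes was 0.22 over the 89 pairs and the Pearson correlation 0.14, given as a description. Both sets of fold changes come from the same libraries.

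**Figure D5:**
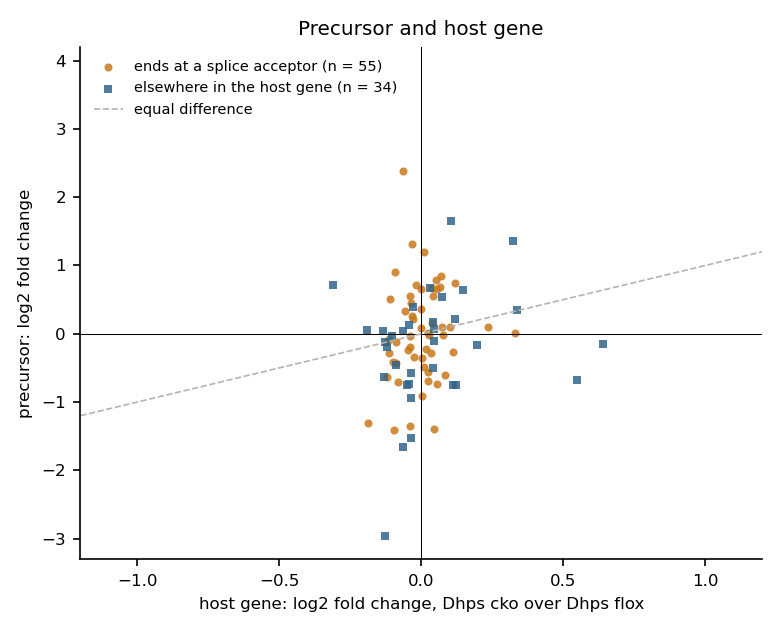
Each point is one of 89 precursors, with the log2 fold change of its host gene (Dhps cko over Dhps flox) on the x axis and that of the precursor on the y axis, and the dashed line marks equal difference. The points spread widely up and down but narrowly from side to side, for the 55 precursors that end at a splice acceptor and for the 34 elsewhere in the host gene alike.

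Of 30 microRNA genes known from myeloid biology, 21 were listed and 5 were members, namely Mir27a, Mir23a, Mir24-2, Mir142 and Mir106b. Mir106b, in an intron of the replication gene Mcm7, was 0.33 and 0.48 FPKM in Dhps cko and 1.32 and 0.23 FPKM in Dhps flox libraries, so the Dhps flox libraries held both the highest and the lowest value. Among the 16 listed nonmembers, 8 were listed at 0 in every library, namely Mir223, Mir21a, Mir181b-1, Mir17, Mir18, Mir19a, Mir19b-1 and Mir20a. All 8 of these genes overlap an exon of another gene on their strand, and a listed 0 does not show that the microRNA is absent. The other 8 were Mir16-1, Mir150, Mir15a, Mir25, Mir126a, Mir93, Mir16-2 and Mir92-1, of which Mir16-1 had the highest mean at 0.0625 FPKM.

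The machinery that makes and uses microRNAs showed small differences. The processing and effector list held 39 symbols, with Tut4 and Tut7 also entered under the older symbols Zcchc11 and Zcchc6, and 37 genes were listed. Of these, 35 were tested by limma and 2 had an unadjusted p under 0.05, both higher in Dhps cko cells. These were Adar, the RNA editing enzyme, at 18.25 and 17.35 FPKM against 15.19 and 15.71 FPKM (log2 fold change 0.20), and Ran, the GTPase of nuclear export, at 39.15 and 37.62 FPKM against 34.48 and 34.45 FPKM (0.15). With 7.0% of all genes at that threshold, 2 of 35 is near the background. Neither gene stayed under it after rescaling to TPM, without a variance trend or with a replicate block. No adjusted p of the list was under 0.05. Its median log2 fold change was -0.04, with a range from -0.24 to 0.28.

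The core steps were at similar levels in both genotypes. Drosha was 2.19 and 1.9 FPKM in Dhps cko and 1.93 and 1.97 FPKM in Dhps flox libraries, and its partner Dgcr8 was 6.96 and 6.46 FPKM against 7.30 and 7.38 FPKM. Xpo5, the exporter, was 13.78 and 13.36 FPKM against 13.18 and 14.76 FPKM. Dicer1 was 5.16 and 4.77 FPKM against 5.48 and 5.60 FPKM, and Ago2, the Argonaute that can cut its target, was 28.16 and 24.07 FPKM against 28.70 and 29.51 FPKM. Dgcr8, Dicer1 and Ago2 were lower in both Dhps cko libraries by a small margin, and Drosha and Xpo5 overlapped. Over the 35 tested genes of the list, 6 were higher and 7 lower without overlap. Of all genes 36.0% did not overlap, so no direction is read from the named genes.

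Of 10 transcription factors known to act on myeloid microRNA genes, 1 had an unadjusted p under 0.05, near the background of 7.0%. This gene, Myc, was 1.60 and 1.44 FPKM in Dhps cko and 1.07 and 1.09 FPKM in Dhps flox libraries, a log2 fold change of 0.46 ± 0.16 (SE, limma, unadjusted p = 0.0396, adjusted p = 0.68). Spi1, which encodes PU.1 and is known to bind the promoter of the Mir23a cluster, was 154.5 and 151.95 FPKM against 135.42 and 152.67 FPKM, with overlap.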

How the data were processed

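The 4 libraries of splenic PMN-MDSCs were compared here. Per gene, FPKM rounded to 2 decimals were deposited, which the authors made with Cutadapt, HISAT2 (mm10), StringTie and ballgown; the annotation and the use of strand are not given in the sources used here. The members and lists were chosen with earlier results of these data known. Positions and hosts came from GENCODE M21 (28511 of 28585 identifiers matched) and sequences from RefSeq GRCm38.p6. The genotype comparison used limma 3.58.1 (R 4.3.3, eBayes with a trend) on log2(FPKM + 0.1), where the mean reached 0.1 FPKM, adjusted by Benjamini-Hochberg, with no replicate block. The script was tested on simulated data. Fragments were estimated as FPKM times length times depth and are approximate. Besides counting error they carry the error of the loose depth estimate and of rounded FPKM. A host is a gene on the same strand that contains the precursor. Values were given for members of at least 5 FPKM, with an unadjusted p under 0.05, in a cluster, next to the 0.5 FPKM limit or on the list of known myeloid microRNAs. Alternatives covered pseudocount, filter, scaling, variance model, replicate block, membership and leaving out each library. Python 3.11.15 was used for the other steps.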

Additional observations from a re-analysis of the deposited data

How the results depend on the processing

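The number of members with an unadjusted p under 0.05 (23) ran from 14 to 34 when each library was left out in turn, the number without overlap (38) from 61 to 78 by the smaller groups alone, the median log2 fold change from -0.2616 to 0.0755, and the processing and effector genes from 0 to 1. With a filter or a membership limit of 1 FPKM, 61 members were left, of which 14 had an unadjusted p under 0.05 and 23 did not overlap, and with that filter 1 had an adjusted p under 0.05 (Mir27a, 0.0441). The processing and effector count was 0 after rescaling to TPM, without a variance trend and with a replicate block. The replicate numbers were only shared, since same-numbered libraries had deviations with a correlation of -0.0061, and with a replicate block 30 members had an unadjusted p under 0.05 and 0 an adjusted one. Mir27a, Mir23a, Mir6996 and Gm37352 kept an unadjusted p under 0.05 in 16 of 16 alternatives, Mir142b, Mir6953, Mir6979 and Mir7062 in 15, Mir24-2 and Mir3058 in 14, Mir1932, Mir290a, Mir6955, Mir6960 and Mir7027 in 13, and Gm26532 and Mir142hg in 11. Of 15 alternatives that could be run, Mir8099-2 kept it in 15, Mir7651 and Mir3473g in 14, Mir103-2, Mir7069 and Mir7669 in 12, Mir669n and Mir1938 in 10 and Mir3064 in 9. Alternatives for Gm37352, Gm26532 and Mir142hg were chosen after seeing the data. The log2 fold change of Mir6973a was 0.01 and turned to -0.0223 after rescaling to TPM, -0.003 with size factors and -0.0012 with quantile normalization. Leaving out a library turned the sign of members whose genotypes overlapped, with ranges from -0.3282 to 0.2687 for Mir5125, -0.2192 to 0.4116 for Mir6989, -0.2616 to 0.4582 for Mir7059, -0.1629 to 0.3493 for Mir6924, -0.4521 to 0.885 for Mir6948, -0.2352 to 0.2539 for Mir6973a, -0.579 to 0.0365 for Mir7678 and -1.5076 to 0.5977 for Mir106b. Depth limits the lowest members most, since 48 had fewer than 3 fragments per library. The alternatives reuse the same libraries, so keeping a p under 0.05 in them does not lessen counting error. Mir6996 had about 2.08 and 2.05 fragments in Dhps cko and 5.82 and 5.10 in Dhps flox libraries. Gm37352 had about 110 to 459 per library.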

Other observations

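Lin28a, an RNA-binding protein gene known from embryonic stem cells and from blocking let-7 precursor processing, was the member of the processing list with an unexpected level, and was singled out after its values were seen. It was 41.70 and 39.94 FPKM in Dhps cko and 38.12 and 38.20 FPKM in Dhps flox libraries, while Lin28b was at most 0.06 FPKM in any library. The log2 fold change of Lin28a was 0.10 (limma, unadjusted p = 0.144).

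Of the host transcripts left out by the membership rule, Mir22hg was 5.69 and 5.68 FPKM in Dhps cko and 7.58 and 6.07 FPKM in Dhps flox libraries. Mir17hg, the host of the miR-17 to miR-92 cluster, was 0.62 and 0.71 FPKM against 0.64 and 0.81 FPKM, with overlap, while the precursor genes Mir17, Mir18, Mir19a and Mir20a inside it were listed at 0 in all 4 libraries.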
